A study of Mus musculus with 9 samples.

Results

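The genes described here serve the DNA damage response and the repair of DNA breaks. They are the 52 rows of the deposited table whose symbol is on a list of 52 such genes, out of 36410 rows in all, and each of the 52 is among the 12678 genes that passed the filter on low counts. Ribosome-protected fragments, the short pieces of mRNA that a translating ribosome shields from nuclease, were counted in 3 lines of immortalized mouse striatal cells. The striatum is the brain region most affected in Huntington disease (HD). The control line, STHdhQ7/Q7, carries Htt alleles with 7 glutamine codons in exon 1. The HD-het line, STHdhQ7/Q111, carries an allele of that length and a knock-in allele with 111 such codons, and the HD-homo line, STHdhQ111/Q111, carries knock-in alleles of 111 codons only. All cells were labelled C57/BL6 and were held for 10 min in cycloheximide, an inhibitor that stops ribosomes during elongation. Fragments of 26 to 32 nt were taken from the 80S monosome fraction, and 3 libraries were made per line. Each genotype was represented by 1 line, so genotype and line cannot be told apart. No mRNA or protein levels of the repair genes were used here, so a change in these fragments cannot be assigned to mRNA amount or to translation. Per the series' design text the 3 libraries of a line came from separate rounds of culture, so p-values measure the spread between cultures of 1 line.

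A DNA break is first sensed and marked, then passed to a repair route. PIKK family kinases signal the damage, with ATM responding mainly to broken ends and ATR to single-stranded DNA coated by the RPA complex. Ends are rejoined directly in non-homologous end joining, where the Ku proteins capture the end and recruit the kinase DNA-PKcs, or copied from the sister chromatid in homologous recombination. Base excision repair and nucleotide excision repair remove damaged bases and bulky lesions, and base excision enzymes have been studied in Huntington disease because oxidative lesions arise within the expanded CAG repeat.

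Library totals ran from 22504543 to 41888701 counts, and the lowest correlation of log2(CPM + 1) between replicates of a line was 0.991 across genes, which are not independent replicates. Levels are given as CPM, the counts scaled to a TMM-adjusted library total of 1e6. Levels of different repair genes are compared only as CPM per kb of coding sequence, while lists of markers are summed in CPM. Of 11 markers of striatal projection neurons, 7 failed the filter on low counts, among them Drd1 and Drd2 with no count in any library. Foxp1, Ppp1r1b, Penk and Pde10a passed it, and the mean level of Ppp1r1b, which encodes DARPP-32, was 12.04, 5.18 and 10.55 CPM in control, HD-het and HD-homo, lower in HD-het than in control (log2 change -1.22, adjusted p = 0.04, edgeR). The summed level of the list ran from 44.8 to 51.3 CPM in the control libraries, from 48.2 to 51.9 CPM in HD-het and from 68.2 to 75.3 CPM in HD-homo, most of it Foxp1. Of 5 markers of mature neurons, Tubb3 and Map2 passed the filter, while Snap25 and Syt1 were at or below 0.0407 CPM in the mean of every line. All 6 precursor markers passed the filter. Of these, Nes, Sox2 and Pax6 were near lost in HD-homo cells, while Vim stayed abundant in every line. The mean level of Nes was 399.6 CPM for control, 1086 CPM for HD-het and 7.01 CPM for HD-homo, and that of Pax6 was 17.3, 24.8 and 0.0759 CPM. Sox2 had means of 51.2, 33.9 and 2.26 CPM, again by line. Fabp7, at 1.12, 22.3 and 3.04 CPM, was instead higher in HD-homo than in control (1.37, adjusted p = 0.00701, edgeR). Hes1 did not pass in any comparison. Summed over the 6 markers, most of it Vim, libraries of control spanned 9612 to 9869 CPM. Those of HD-het spanned 9042 to 9855 CPM and those of HD-homo 6025 to 6544 CPM. Mesenchymal markers differed too, and all 5 on the list passed the filter. Among them, Col1a1 was at 3344, 16520 and 4568 CPM and Acta2 at 4100, 8388 and 267.5 CPM in the same order. Summed over the 5, libraries of control spanned 6800 to 9693 CPM and those of HD-het 28370 to 30470 CPM. Those of HD-homo spanned 5560 to 7080 CPM and overlapped with control. Of 4 leukocyte markers, Ptprc, Aif1 and Itgam had mean levels of at most 0.193 CPM, and Cd68 was at 2.39, 5.195 and 2.47 CPM, higher in HD-het than in control (1.09, adjusted p = 0.0109, edgeR). What part the differences in these markers have in the repair gene values was not tested.

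The lines differed in many genes, and the repair genes are read against that background. In HD-het against control cells, 4 members were higher and 18 were lower, with 30 not passing an adjusted p of 0.05 in edgeR's quasi-likelihood test. Across all 12678 genes tested, 31.0% were higher and 29.1% lower. Below, a member that did not pass is one that did not do so in this fit, and 18, 11 and 15 such members in the 3 comparisons passed in at least 1 of 19 alternative settings. The 4 higher members were Prkdc, Rad51c, Trp53bp1 and Rnf168. None of the 22 reached a 2-fold change, against 20.8% of all genes. The median log2 change of the members was -0.04, and that of all genes was 0.02.

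In HD-homo against control cells, 11 members were higher and 9 were lower, where 23.3% of all genes were higher and 22.3% lower. Ddb2 and Rad51c, or 2 of 52, changed at least 2-fold, against 17.2% of all genes. Both comparisons with control use the same 3 control libraries. HD-homo against HD-het cells, which is also the test of whether these changes differ between the mutant lines, gave 20 higher and 8 lower members, with 34.6% and 32.8% of all genes. Xrcc6 and Ddb2 were at least 2-fold higher and Prkdc and Ercc4 at least 2-fold lower, or 4 of 52, against 27.3% of all genes. The member medians were 0.00 and 0.16 on the log2 scale in the last pair of comparisons, and the medians of all genes were 0.02 in each.

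**Figure D1:**
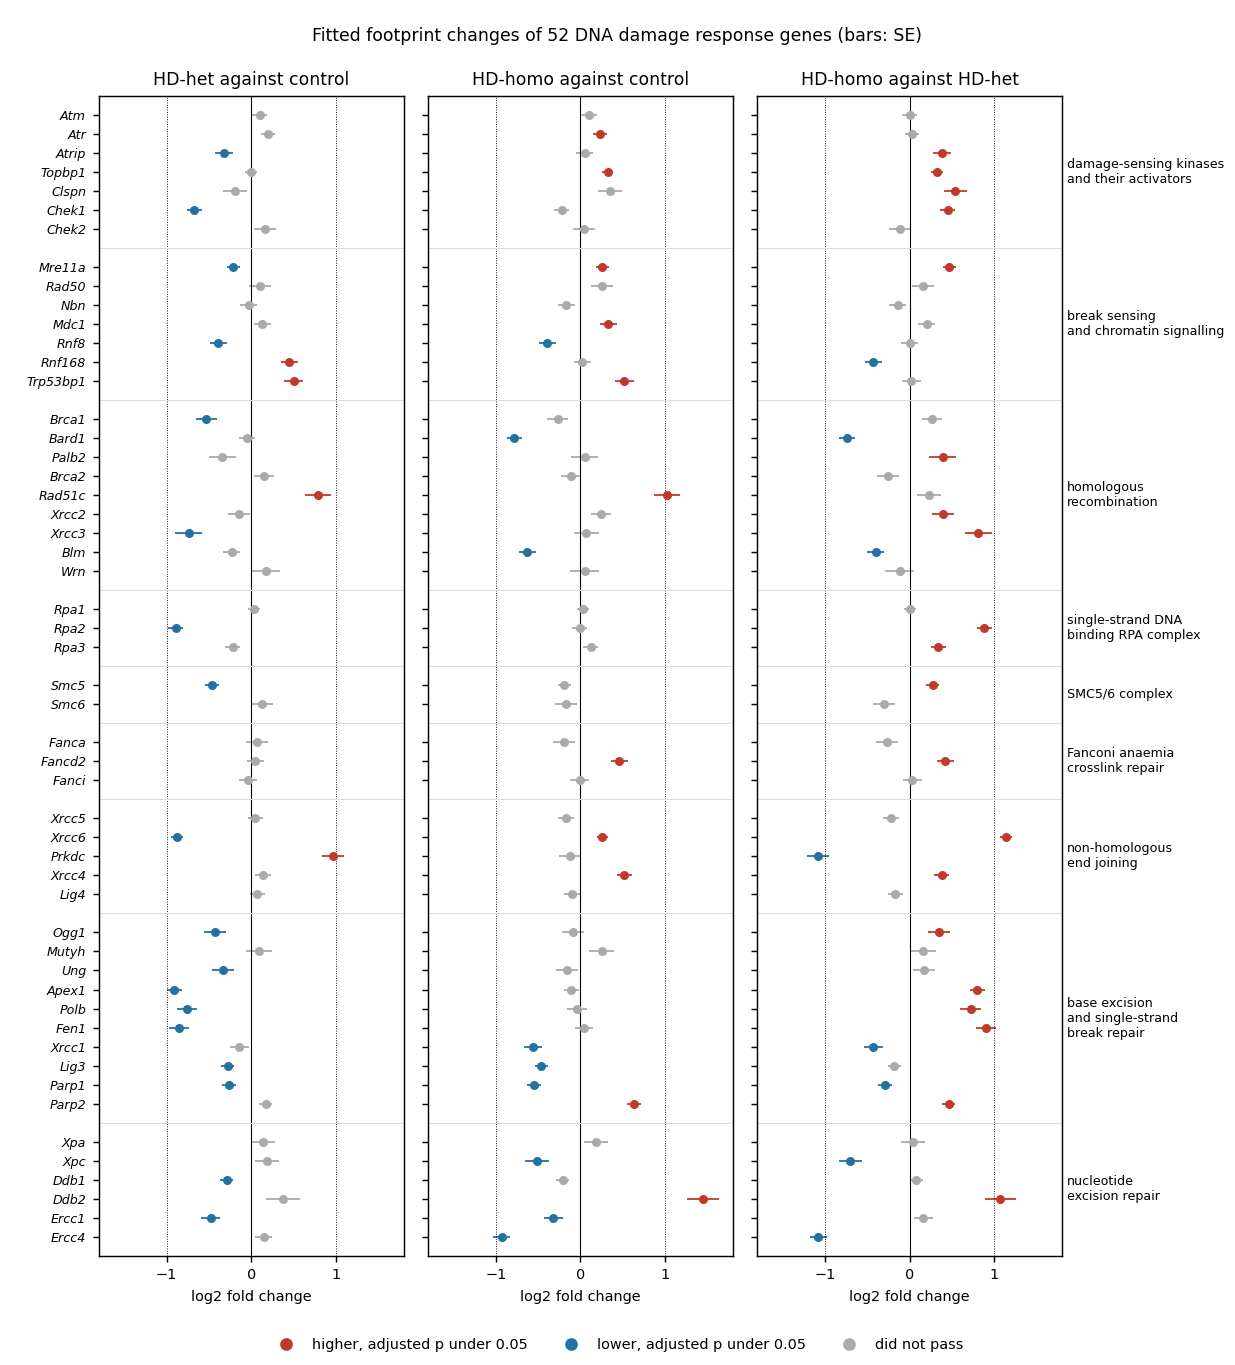
Fitted log2 fold change of each of the 52 members (x axis; bars are the SE of the fit on 9 libraries) in the 3 comparisons, ordered by role; red and blue points passed an adjusted p of 0.05 and dotted lines mark a 2-fold change. Most members that passed lay within the dotted lines, and Apex1, Polb, Fen1, Rpa2 and Xrcc6 fell in HD-het cells and were higher in HD-homo cells by comparison with HD-het.

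In non-homologous end joining, the footprint levels of the Ku subunit genes and of their kinase gene parted in HD-het cells. Xrcc6 (chr15:81987833-82040085, GRCm38.p6), which encodes the Ku70 subunit, was at 110.6, 108.3 and 114.1 CPM in the control libraries, 60.0, 60.8 and 60.6 CPM in HD-het and 136.3, 133.5 and 130.1 CPM in HD-homo. The ranges of the lines did not overlap, with HD-het lowest and HD-homo highest. By edgeR's test, Xrcc6 fell by 0.88 on the log2 scale in HD-het cells (SE 0.07, adjusted p = 1.58e-06) and rose by 0.26 in HD-homo cells (SE 0.07, adjusted p = 0.00753). The mutant lines differed by 1.14 (SE 0.07, adjusted p = 1.04e-07).

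Xrcc5, which encodes the partner subunit Ku80, was at 63.0, 59.7 and 64.3 CPM for control, 63.5, 64.7 and 65.0 CPM for HD-het and 49.3, 63.0 and 53.8 CPM for HD-homo. The ranges overlapped between control and each mutant line, and no comparison of Xrcc5 passed. Its difference of -0.22 between the mutant lines (adjusted p = 0.0584, edgeR) passed in 4 of 19 alternative settings. Prkdc (chr16:15637444-15842239), the gene of DNA-PKcs, went the other way from Xrcc6. Prkdc was at 14.6, 15.7 and 14.5 CPM in the control libraries, 27.1, 31.6 and 28.4 CPM in those of HD-het and 13.7, 16.3 and 11.04 CPM in those of HD-homo. The HD-het libraries lay above all others, while control and HD-homo overlapped.

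Prkdc rose by 0.96 on the log2 scale in HD-het against control (SE 0.13, adjusted p = 8.24e-05) and was lower by a log2 change of -1.08 in HD-homo against HD-het (SE 0.13, adjusted p = 2.38e-05, edgeR). At 12384 nt it has the longest coding sequence among the members. With offsets that remove each library's trend in coding length and GC content, its changes were 0.64 and -0.42, still past the threshold, with adjusted p = 0.000194 and 0.00248. These offsets came from a robust loess, and with a plain loess the latter change was -0.13 and did not pass (adjusted p = 0.315, edgeR). Xrcc4, a scaffold of the end-joining ligase, was at 19.2, 19.3 and 18.1 CPM in control and at 24.6, 27.2 and 29.3 CPM in HD-homo, a rise of 0.52 (SE 0.09, adjusted p = 0.000769). Lig4, the ligase it binds, did not pass in any comparison.

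E2F proteins are transcription factors of the S-phase programme, to which many repair genes belong, and their core words (TTTCCCGC, TTTCGCGC, TTTGCCGC and TTTGGCGC, searched on both strands) were sought in the 250 bases before each RefSeq start site (GRCm38.p6). A window was given for 43 of the 52 members, and 6 of these, or 14%, held a word: Xrcc6, Bard1, Mdc1, Topbp1, Brca2 and Chek2. Of all 27025 genes with a window, 583, or 2.16%, held a word. This set was not limited to genes that passed the filter on low counts, as all members did, so the shares are of unlike sets. Each of the 6 windows held 1 match, so that no matches overlap. The stretches below are shown for the 4 of them whose footprint level passed the test in at least 1 comparison, 5′ to 3′ on the strand of the gene, with the word in capitals.

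Xrcc6, chr15:82016303-82016350, plus strand: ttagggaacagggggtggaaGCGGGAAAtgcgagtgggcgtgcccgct
Bard1, chr1:71103154-71103201, minus strand: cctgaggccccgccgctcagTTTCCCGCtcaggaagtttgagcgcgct
Mdc1, chr17:35841462-35841497, plus strand: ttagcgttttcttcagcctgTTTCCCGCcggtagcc
Topbp1, chr9:103305178-103305225, plus strand: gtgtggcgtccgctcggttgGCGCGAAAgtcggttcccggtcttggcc

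Xrcc6 carries the same word as Bard1 and Mdc1, on the opposite strand. The Xrcc6 stretch lies before the start site of the table and within the longer annotated extent of the gene. In HD-het against control, the log2 changes were -0.88 for Xrcc6, -0.05 for Bard1, 0.13 for Mdc1, -0.00 for Topbp1, 0.15 for Brca2 and 0.16 for Chek2, and only that of Xrcc6 passed. A match is a string of letters and says nothing of whether a factor binds there.

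The RPA complex coats single-stranded DNA in replication and in repair. Its large subunit gene Rpa1 was at 525.7, 526.0 and 510.0 CPM for control, 545.8, 547.8 and 497.7 CPM for HD-het and 514.6, 546.9 and 532.0 CPM for HD-homo. These ranges overlapped throughout, and no comparison passed. Rpa2 (chr4:132768360-132778746), the middle subunit that the damage kinases phosphorylate, was at 67.5, 68.3 and 78.3 CPM in the control libraries, 36.6, 40.9 and 37.8 CPM in those of HD-het and 65.4, 73.1 and 74.0 CPM in those of HD-homo. HD-het lay below the other lines in every library. Rpa2 fell by 0.89 in HD-het against control (SE 0.09, adjusted p = 1.13e-05) and was higher by 0.88 in HD-homo against HD-het (SE 0.09, adjusted p = 7.23e-06, edgeR).

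Rpa3, the small subunit, did not pass against control in either line. It was higher by 0.34 in HD-homo against HD-het (SE 0.09, adjusted p = 0.00605), and this call was lost with the length and GC offsets, at -0.00 (adjusted p = 0.977). Its coding sequence of 363 nt is the shortest among the members.

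**Figure D2:**
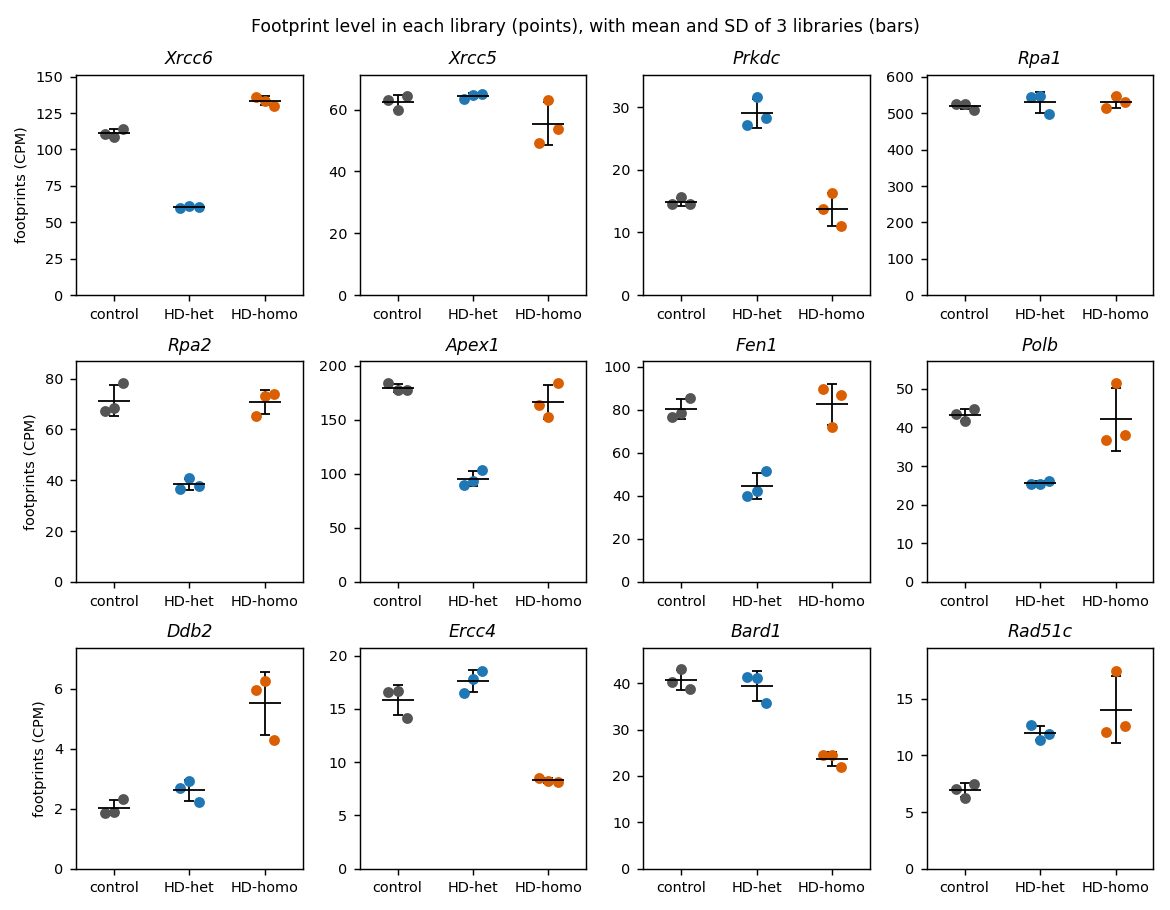
Footprint level in CPM (y axis, from 0) of 12 members in each of the 9 libraries (points), with the mean and SD of the 3 libraries of a line (bars). Xrcc6, Rpa2, Apex1, Fen1 and Polb were lowest in HD-het cells, Prkdc was highest there, and Ddb2, Ercc4 and Bard1 were set apart in HD-homo cells.

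In base excision and single-strand break repair, 7 of the 10 members were lower in HD-het than in control cells and none were higher, where 29.1% of all genes were lower and 31.0% higher. One of the 7, Ung, was called in 7 of 19 alternative settings only. Ogg1 and Ung encode glycosylases that excise 8-oxoguanine and uracil, Apex1 the endonuclease that cuts the abasic site, Polb the gap-filling polymerase, Fen1 the flap endonuclease, Lig3 a ligase and Parp1 a sensor of nicks. Mutyh, Xrcc1 and Parp2 did not pass.

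Apex1 (chr14:50924949-50927188) was at 184.0, 177.3 and 177.4 CPM for control, 89.7, 93.7 and 103.0 CPM for HD-het and 163.2, 152.8 and 183.9 CPM for HD-homo. The HD-het libraries lay below all others, and those of control and HD-homo overlapped. The log2 change was -0.91 in HD-het against control (SE 0.09, adjusted p = 7.79e-06) and 0.80 in HD-homo against HD-het (SE 0.09, adjusted p = 1.12e-05, edgeR). The coding exons of Apex1 overlap those of Pip4p1 on the opposite strand over 708 nt, and use of strand in the counting was not given in the sources used here.

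Fen1 (chr19:10199132-10204393) was at 76.6, 78.6 and 85.5 CPM in the control libraries, 39.9, 42.1 and 51.3 CPM in those of HD-het and 89.5, 71.7 and 86.6 CPM in those of HD-homo. Polb (chr8:22628119-22653464) was at 43.4, 41.6 and 44.9 CPM for control, 25.2, 25.4 and 26.1 CPM for HD-het and 36.6, 51.5 and 38.1 CPM for HD-homo. Both were lower in every HD-het library than in any other, and both overlapped between control and HD-homo. In HD-het against control, edgeR gave a change of -0.85 for Fen1 (SE 0.12, adjusted p = 7.89e-05) and of -0.76 for Polb (SE 0.12, adjusted p = 0.000275). The coding sequence of Fen1 is covered on the opposite strand by the antisense gene Gm10143 over all 1140 nt.

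The other falls of this group in HD-het cells were smaller, at -0.43 for Ogg1, -0.33 for Ung, -0.28 for Lig3 and -0.26 for Parp1. The call of Ung (adjusted p = 0.0493) was lost with RLE size factors, DESeq2, a minimum of 10 counts in every library, the replicate block and the robust length and GC offsets, and without any 1 library of control or HD-het, or HD-homo replicate 3. That of Ogg1 was lost without control replicate 3 or HD-het replicate 2, and that of Parp1 without control replicate 3.

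In HD-homo cells the falls were those of the genes for the single-strand break scaffold and its partners. Xrcc1, Lig3 and Parp1 were lower than in control, by log2 changes of -0.56 (SE 0.11, adjusted p = 0.00176), -0.46 (SE 0.08, adjusted p = 0.000933) and -0.55 (SE 0.08, adjusted p = 0.000183). Parp1 (chr1:180568891-180600999) was at 199.0, 184.5 and 207.0 CPM in the control libraries, 160.8, 159.4 and 173.6 CPM in those of HD-het and 135.7, 141.1 and 127.4 CPM in those of HD-homo. The lines stood in this order with no overlap. The further difference of -0.29 between HD-homo and HD-het (SE 0.08, adjusted p = 0.00702) was lost with the length and GC offsets, at -0.07 (adjusted p = 0.432), and with library totals alone.

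Parp2 (chr14:50807897-50821301), a paralog of Parp1 with an overlapping role at breaks, moved up instead. It was at 27.6, 26.2 and 25.2 CPM for control, 30.5, 29.4 and 28.9 CPM for HD-het and 39.2, 43.4 and 39.8 CPM for HD-homo, with no overlap between lines. The rise in HD-homo against control was 0.63 (SE 0.08, adjusted p = 7.77e-05), and the change in HD-het against control, 0.17, did not pass. Against HD-het, HD-homo cells were higher in Ogg1, Apex1, Polb, Fen1 and Parp2 and lower in Xrcc1 and Parp1. The call of Ogg1 in that comparison (adjusted p = 0.0345, edgeR) was lost without HD-het replicate 2, HD-homo replicate 2 or HD-homo replicate 3. It was also lost with the robust length and GC offsets and in a fit of only the 6 libraries compared.

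Nucleotide excision repair held the largest rise and the largest fall against control among the members, both in HD-homo cells. Ddb2 (chr2:91211545-91237132), which recognises ultraviolet lesions, was at 1.87, 1.90 and 2.33 CPM in the control libraries, 2.70, 2.92 and 2.22 CPM in those of HD-het and 5.95, 6.27 and 4.30 CPM in those of HD-homo. The HD-homo libraries lay above all others, and control and HD-het overlapped. By edgeR's test Ddb2 rose by 1.45 in HD-homo against control (SE 0.19, adjusted p = 7.45e-05) and by 1.07 against HD-het (SE 0.18, adjusted p = 0.000314). Its coding exons overlap those of Acp2 on the opposite strand over 273 nt.

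Ercc4 (chr16:13109366-13152009) encodes the nuclease subunit XPF, which cuts next to the lesion together with ERCC1. It was at 16.6, 16.7 and 14.2 CPM for control, 16.5, 17.8 and 18.5 CPM for HD-het and 8.51, 8.22 and 8.12 CPM for HD-homo. HD-homo stood apart below the other lines, which overlapped. The log2 change was -0.93 against control (SE 0.10, adjusted p = 2.3e-05) and -1.08 against HD-het (SE 0.10, adjusted p = 3.74e-06, edgeR).

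Ercc1 was lower in HD-het, at -0.48 (adjusted p = 0.00261), and in HD-homo, at -0.32 (adjusted p = 0.0298, edgeR), and the latter call was lost without any 1 of control replicates 1, 2 and 3 or HD-homo replicates 2 and 3. Xpc, a lesion sensor, was lower in HD-homo than in control, at -0.51 (adjusted p = 0.0123), a call lost without control replicate 3, and lower than in HD-het, at -0.70 (adjusted p = 0.00109), a call lost with plain loess offsets. Ddb1, an adaptor of the CUL4 ubiquitin ligase and the member with the highest level per kb, at 355.9 ± 2.25 CPM per kb in control (SD, n = 3), was lower in HD-het at -0.29 (adjusted p = 0.00868, edgeR). Xpa, the scaffold of the incision complex, did not pass in any comparison.

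Among the damage-sensing kinases and their activators, the changes of the apical kinases depended on the length and GC offsets. Atm was at 38.3, 37.2 and 40.6 CPM in the control libraries, 38.4, 42.9 and 42.9 CPM in those of HD-het and 37.6, 44.8 and 42.1 CPM in those of HD-homo, with overlap throughout and no call. With the offsets, Atm was higher in HD-homo than in control by 0.38 (adjusted p = 0.00281, edgeR). Atr rose by 0.23 in HD-homo against control (adjusted p = 0.0418), a call lost in 10 of 19 alternative settings, among them the replicate block and leaving out any of the control replicates, HD-het replicate 1 or 3, or HD-homo replicate 1 or 3. With the offsets the rise of Atr was 0.49 (adjusted p = 0.00178, edgeR). Atrip, the partner that brings ATR to RPA, was lower in HD-het at -0.32 (adjusted p = 0.0208), and this was lost without control replicate 3 or HD-het replicate 1 or 2.

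Chek1, the effector kinase below ATR, had a larger change. It was at 53.1, 49.6 and 54.3 CPM for control, 32.8, 33.6 and 32.5 CPM for HD-het and 40.2, 45.9 and 49.1 CPM for HD-homo. No library of a line entered the range of another, with HD-het lowest. Chek1 fell by 0.67 in HD-het against control (SE 0.09, adjusted p = 8.42e-05) and was higher by 0.45 in HD-homo against HD-het (SE 0.09, adjusted p = 0.00103, edgeR). Topbp1, which activates ATR, was higher in HD-homo than in control and HD-het by 0.32 each (adjusted p = 0.00418 and 0.00229). Clspn, an adaptor for Chek1, and Atrip were also higher in HD-homo against HD-het, by 0.54 and 0.38. Chek2, the kinase below ATM, did not pass in any comparison.

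The genes that sense breaks and mark the chromatin around them went in both directions. Trp53bp1, which shields ends from resection, was at 51.8, 56.8 and 50.0 CPM in the control libraries, 69.5, 88.8 and 66.0 CPM in those of HD-het and 73.5, 78.0 and 76.4 CPM in those of HD-homo. Both mutant lines lay above control and overlapped each other. Its rise was 0.50 in HD-het (SE 0.11, adjusted p = 0.00228) and 0.52 in HD-homo (SE 0.11, adjusted p = 0.0026, edgeR). With the length and GC offsets these were 0.26 (adjusted p = 0.0435) and 0.72 (adjusted p = 0.000154), and the call in HD-het was lost with plain loess offsets.

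Rnf8 and Rnf168 encode the ubiquitin ligases that act in sequence before Trp53bp1 is recruited. Rnf8 was at 18.8, 17.6 and 19.7 CPM for control, 14.4, 14.3 and 14.2 CPM for HD-het and 14.1, 12.8 and 16.0 CPM for HD-homo, lower in each mutant line with a log2 change of -0.39 (adjusted p = 0.0068 and 0.00963). Of its coding sequence of 1464 nt, 1450 nt overlap Gm28043 on the same strand, a gene that has a row of its own with 0 counts in every library. Rnf168 was at 27.0, 27.1 and 27.0 CPM in the control libraries, 36.7, 36.0 and 38.5 CPM in those of HD-het and 23.2, 29.0 and 30.3 CPM in those of HD-homo. The HD-het libraries lay above all others. Rnf168 rose by 0.45 in HD-het against control (adjusted p = 0.00268) and changed by -0.43 in HD-homo against HD-het (adjusted p = 0.00293, edgeR), and the former call was lost with plain loess offsets.

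Of the MRE11-RAD50-NBN sensor, Mre11a was lower in HD-het at -0.21 (adjusted p = 0.0359) and higher in HD-homo by 0.26 (adjusted p = 0.0163), and differed between the mutant lines by 0.47 (SE 0.08, adjusted p = 0.00023, edgeR). The first of these calls was lost with a minimum of 10 counts in every library and without any 1 control replicate or HD-het replicate 1 or 2. The second was lost without control replicate 1 or 2 or HD-homo replicate 3. Rad50 and Nbn did not pass in any comparison. Mdc1, the platform that binds the phosphorylated histone at breaks, rose by 0.33 in HD-homo against control (adjusted p = 0.0155), a call lost without control replicate 3 or HD-homo replicate 3.

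In homologous recombination, Rad51c (chr11:87376645-87404954), a recombination mediator, rose in both mutant lines. It was at 7.07, 6.28 and 7.45 CPM for control, 12.6, 11.4 and 11.9 CPM for HD-het and 12.04, 17.4 and 12.6 CPM for HD-homo. Every mutant library exceeded every control library, and the mutant lines overlapped. The rise was 0.79 in HD-het (SE 0.15, adjusted p = 0.000832) and 1.02 in HD-homo (SE 0.15, adjusted p = 0.000192), and the difference between them, 0.23, did not pass (adjusted p = 0.181, edgeR).

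Xrcc3, its partner in a mediator complex, did not follow it. Xrcc3 was at 3.25, 3.21 and 3.69 CPM in the control libraries, 2.01, 2.01 and 2.03 CPM in those of HD-het and 3.28, 3.17 and 4.21 CPM in those of HD-homo, a change of -0.74 in HD-het against control (SE 0.16, adjusted p = 0.00216, edgeR). The HD-het libraries lay below all others. Xrcc3 was higher by 0.81 in HD-homo against HD-het (SE 0.16, adjusted p = 0.000985, edgeR). Xrcc2, also a mediator gene, passed in HD-homo against HD-het only, at 0.39 (adjusted p = 0.0166, edgeR). This call was lost without HD-het replicate 1 or HD-homo replicate 3. It was also lost with the robust length and GC offsets and in a fit of only the 6 libraries compared.

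Brca1 and Bard1 encode the subunits of 1 ubiquitin ligase, and Brca1 passed in HD-het and Bard1 in HD-homo cells. Brca1 was at 64.9, 66.9 and 62.3 CPM for control, 42.0, 47.1 and 45.5 CPM for HD-het and 49.9, 66.2 and 45.5 CPM for HD-homo. Brca1 fell by 0.53 in HD-het against control (SE 0.12, adjusted p = 0.00346), and neither its change in HD-homo nor the difference between the mutant lines passed (adjusted p = 0.103 and 0.0818, edgeR). With the length and GC offsets the difference between the mutant lines went from 0.26 to 0.62 (adjusted p = 0.000223), and it also passed with library totals alone and without HD-homo replicate 3. The change in HD-homo against control passed without HD-homo replicate 2. Bard1 (chr1:71027535-71103141) was at 40.3, 43.0 and 38.7 CPM in the control libraries, 41.4, 41.1 and 35.7 CPM in those of HD-het and 24.4, 24.6 and 22.0 CPM in those of HD-homo, so that the HD-homo libraries lay below all others.

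The log2 change of Bard1 was -0.78 in HD-homo against control (SE 0.09, adjusted p = 4.18e-05) and -0.74 against HD-het (SE 0.09, adjusted p = 3.32e-05, edgeR). Blm, a helicase that dissolves recombination intermediates, was lower in HD-homo than in control at -0.63 (SE 0.10, adjusted p = 0.00042). Its difference from HD-het, -0.40 (adjusted p = 0.0046), was lost with the length and GC offsets, at -0.14 (adjusted p = 0.139). Palb2, which joins BRCA1 to BRCA2, passed only in HD-homo against HD-het (0.39, adjusted p = 0.0497), a call lost in 11 of 19 alternative settings, among them leaving out control replicate 2 or 3, HD-het replicate 1 or 3, or HD-homo replicate 2 or 3. Brca2, a mediator of strand exchange, and the helicase gene Wrn did not pass in any comparison.

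Of the Fanconi anaemia genes, which act on crosslinks between DNA strands, Fancd2 was at 30.8, 30.0 and 30.1 CPM for control, 29.5, 33.8 and 30.6 CPM for HD-het and 38.0, 47.0 and 40.3 CPM for HD-homo. Only HD-homo stood apart, higher by 0.46 than control (SE 0.10, adjusted p = 0.00256) and by 0.42 than HD-het (SE 0.10, adjusted p = 0.00276, edgeR). Its partner Fanci and the core complex gene Fanca did not pass. In the SMC5/6 complex, which handles stalled forks and recombination, Smc5 was lower in HD-het at -0.46 (SE 0.08, adjusted p = 0.000495) and Smc6 did not pass. Smc5 was also higher in HD-homo against HD-het, by 0.27 (adjusted p = 0.0112, edgeR), a call lost in a fit of only the 6 libraries compared.

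Genes whose products work together could be set against each other within each library, as the ratio of their CPM per kb. The ratio of Xrcc6 to Xrcc5 was 2.15 ± 0.0359 for control, 1.13 ± 0.00802 for HD-het and 2.93 ± 0.388 for HD-homo (SD, n = 3 each, as for the ratios that follow). Footprint density on Xrcc6 was thus closest to that on Xrcc5 in HD-het cells. The ratio of Prkdc to Xrcc5 was 0.0425 ± 0.00348, 0.07995 ± 0.00581 and 0.0439 ± 0.00670 in the same order, highest in HD-het.

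Rpa2 to Rpa1 stood at 0.327 ± 0.0336, 0.173 ± 0.0116 and 0.318 ± 0.0142, lowest in HD-het. Ercc4 to Ercc1 moved the other way, at 0.139 ± 0.0129, 0.215 ± 0.0266 and 0.0915 ± 0.00961, with no overlap between lines. Bard1 to Brca1 was 1.49 ± 0.0298, 2.09 ± 0.239 and 1.06 ± 0.157, again without overlap. Ddb2 to Ddb1 was 0.00442 ± 0.000583, 0.00691 ± 0.000523 and 0.0138 ± 0.00221, and Xrcc4 to Lig4 was 3.12 ± 0.196, 3.28 ± 0.194 and 4.78 ± 0.261. These ratios are descriptions and were not tested.

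**Figure D3:**
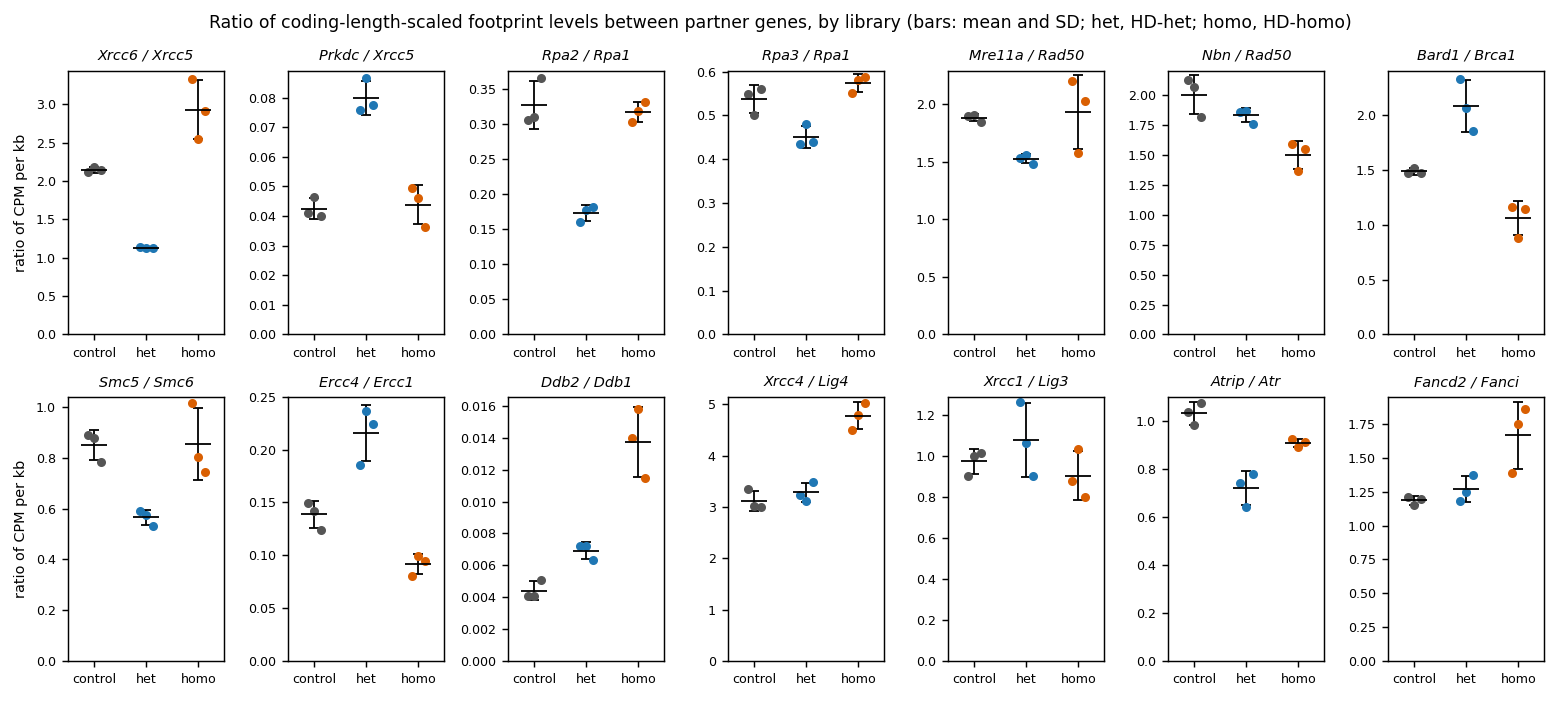
Ratio of CPM per kb of coding sequence between partner genes (y axis, from 0) in each of the 9 libraries (points), with the mean and SD of each line (bars). The Xrcc6 to Xrcc5 and Rpa2 to Rpa1 ratios were lowest in HD-het cells, and Prkdc to Xrcc5 and Bard1 to Brca1 were highest there.

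Other genes of the same repair routes, 93 of which were tested, are given beside the members. Of these, 10 were higher and 39 lower in HD-het against control, and their median log2 change was -0.16. In HD-homo against control 22 rose and 9 fell (median 0.12), and in HD-homo against HD-het 52 rose and 9 fell (median 0.35). The median of all genes was 0.02 in each comparison, and 31.0% of all genes were higher and 29.1% lower in the first, 23.3% and 22.3% in the second and 34.6% and 32.8% in the third. In HD-het the largest falls were those of Recql4, a replication helicase gene (-1.46, adjusted p = 3.27e-06), Ercc8, a factor of transcription-coupled repair (-1.46, adjusted p = 0.000113), and Nsmce2, the SUMO ligase of the SMC5/6 complex (-1.22, adjusted p = 2.14e-06, edgeR). Mean levels of Recql4 were 19.7 CPM for control, 7.20 CPM for HD-het and 16.9 CPM for HD-homo.

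Mpg, which encodes the glycosylase for alkylated bases, stood apart from every other repair gene. It had 0, 1 and 0 counts in the control libraries, 153, 196 and 93 counts in HD-het and 639, 521 and 446 counts in HD-homo. Its coding exons overlap those of Nprl3 on the opposite strand over 596 nt. The other large rises in HD-het were Fancl (0.58, adjusted p = 0.000522), the ligase of the Fanconi core complex, and Parp3 (0.55, adjusted p = 0.0042). In HD-homo they were Poln (1.46, adjusted p = 0.00783, from 0.315 to 0.843 CPM) and Recql (0.87, adjusted p = 1.76e-05, edgeR). Poln was low in counts, with 8, 11 and 10 in the control libraries and 31, 32 and 10 in those of HD-homo.

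The largest falls in HD-homo against control were those of the helicase gene Ercc2 (-0.78, adjusted p = 0.00695), the annealing factor Rad52 (-0.64, adjusted p = 0.00539) and the nuclease Dna2 (-0.48, adjusted p = 0.00506). Against HD-het, Ercc8 (1.77), Mpg (1.87) and Recql4 (1.24) led the rises in HD-homo, and the nuclease genes Mus81 (-0.76) and Ercc5 (-0.57) were among the largest falls.

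Many of these genes are used in S phase, and a list of 25 DNA replication and division genes is given beside them. It had 3 higher and 21 lower genes in HD-het against control (median log2 change -0.34), 6 and 5 in HD-homo against control (median -0.00) and 18 and 3 in HD-homo against HD-het (median 0.39). Of all genes, 31.0% were higher and 29.1% lower in the first, 23.3% and 22.3% in the second and 34.6% and 32.8% in the third. Cdk1, the kinase of mitotic entry, was at 847.7, 457.1 and 913.9 CPM in the mean of control, HD-het and HD-homo, and Mcm5, of the replicative helicase, at 231.2, 134.1 and 278.6 CPM. The exceptions in HD-het were Mki67, at 154.9, 344.8 and 107.8 CPM, and Ccnb2 and Ccne1, which were also higher there. The part of this difference in the values of the repair genes was not tested.

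**Figure D4:**
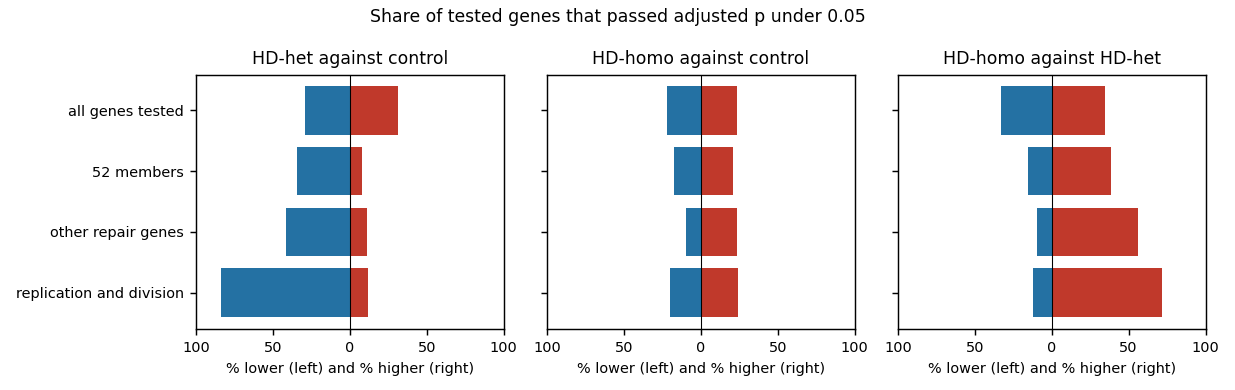
Share of tested genes in percent that were lower (left of 0) or higher (right of 0) at an adjusted p of 0.05, for all 12678 genes, the 52 members, 93 other repair genes and 25 replication and division genes. The lower share in HD-het against control was 29.1% of all genes, 34.6% of the members, 41.9% of the other repair genes and 84% of the division genes.

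Footprint changes also followed the length of the coding sequence across all genes. In HD-het against control, genes with a coding sequence under 1000 nt had a median log2 change of -0.14 and those of at least 4000 nt a median of 0.27. The medians of the members in these classes were -0.28 (8 genes) and 0.12 (12 genes), each below that of all genes. In HD-homo against HD-het, the medians of all genes were 0.24 and -0.40, and those of the members 0.36 and 0.01.

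The median of the long members thus lay above that of all genes of their length in the latter comparison, while Prkdc, at -1.08, lay below it. With the robust length and GC offsets, 4 members gained a call and 1 lost it in HD-het against control, 4 gained and 0 lost in HD-homo against control, and 9 gained and 5 lost in HD-homo against HD-het. The 9 were Atm, Atr, Rad50, Mdc1, Trp53bp1, Brca1, Brca2, Fanci and Ddb1. The sign of Brca2 turned, from -0.26 to 0.29 (adjusted p = 0.0111, edgeR). The offsets placed Atm at 0.54 (adjusted p = 0.000127), Atr at 0.51 (adjusted p = 0.000756) and Trp53bp1 at 0.46 (adjusted p = 0.00167) in this comparison, where the fit without offsets gave 0.00, 0.03 and 0.02. Member medians with the offsets were -0.12, 0.03 and 0.28 in the 3 comparisons, in the order used above, and those of all genes were 0.01, 0.02 and 0.04.

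**Figure D5:**
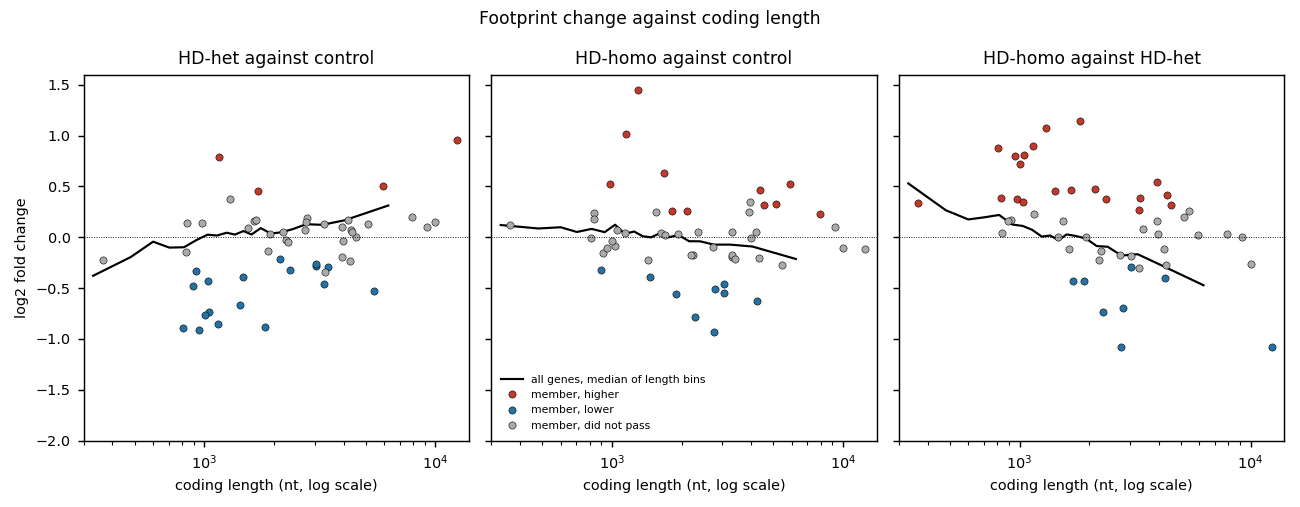
Log2 fold change (y axis) against coding length in nt (x axis, log scale) for the 52 members (points, coloured by call at an adjusted p of 0.05) and the median of all genes in bins of coding length (line). The line rises with length in HD-het against control and falls in HD-homo against HD-het, where the longest member, Prkdc at 12384 nt, has a change of -1.08.

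For 15 members a gene that starts within 1000 nt on the opposite strand was also tested. In HD-het against control, member and neighbour both passed in 4 pairs, and they went in opposite directions in all 4. Of all 578 such pairs of tested genes, both passed in 215, or 37.2%, and 32.1% of these went in opposite directions. Apex1 changed by -0.91 and Osgep, 75 nt away, by 0.84 (adjusted p = 0.000159). Prkdc changed by 0.96 and the replication helicase gene Mcm4, 466 nt away, by -0.52 (adjusted p = 0.000186). The others were Brca1 and Nbr1, at -0.53 and 0.34, and Xrcc3 and Zfyve21, at -0.74 and 0.52. In HD-homo against HD-het both passed in 7 pairs, 5 of them in opposite directions, and in HD-homo against control in 0 pairs. Over all such pairs, both passed in 43.6% and 14.7%, and 32.1% and 21.2% of these were opposite.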

How the data were processed

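The deposited table holds raw footprint counts for each gene symbol in 9 libraries, which the authors neither normalized nor pooled. The submitters' processing notes name cutadapt, Bowtie 1.0.1 and mouse build mm10. How fragments were assigned to genes (program, gene models, strand) is not given in the sources used here. The members, lists and alternatives were chosen with earlier results of these data known.

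Counts were fitted with edgeR 4.0.16 (limma 3.58.1, R 4.3.3) using TMM factors, filterByExpr, group means on all 9 libraries and the quasi-likelihood F test, with Benjamini-Hochberg adjustment over 12678 genes and a threshold of 0.05. The SE is that of the log2 fold change. It comes from the quasi-likelihood fit and so includes the spread between libraries of a line. Amplified fragments with no molecular identifier are not single molecules, so the counts are not counts of molecules. Genes named with library values were the 8 members with the largest change among those called in each comparison, apart from Blm and Xrcc1. Leading members of each role but SMC5/6 were added. Of the other repair genes, the 3 largest rises and falls among those called were named, apart from an item that is not reported here. Of the listed repair genes, Ndnl2 was not found among the symbols and Neil2 failed the filter, and both are left out of the counts. Fam175a and Bre are older symbols whose current symbol also has a row, so the same fragments may be counted under both names.

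Coding length and GC content came from the longest coding sequence in GENCODE M21, found for 58.3% of rows and all members. Gene positions and promoter windows came from RefSeq (GRCm38.p6). Alternatives were RLE size factors, library totals alone, DESeq2 1.42.0, other filters, thresholds and subsets, the replicate number as a block, leaving out each library, and length and GC offsets by plain or robust loess (span 0.5), both added after the data were seen. The plain loess was run first, and the robust one was added because the plain one shifted the median of all genes.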

Additional observations from a re-analysis of the deposited data

How the results depend on the processing

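The counts of members called stayed within 1.5 times under other scalings, DESeq2, other filters, fits of only the 6 libraries compared, robust length and GC offsets and leaving out any 1 library. Offsets from plain loess moved the median log2 change of all genes to -0.15 and -0.03 in HD-het and HD-homo against control, and to 0.15 between the mutant lines. With them, 37 members were called in HD-het against control, 2 higher and 35 lower, and 31 were higher and 3 lower in HD-homo against HD-het. In that fit, 24.22% of all genes were higher and 39.97% lower in the former comparison, and 41.39% and 28.05% in the latter. Robust offsets, with all-gene medians of 0.01, 0.02 and 0.04, gave 4 higher and 21 lower, 14 and 10, and 26 and 6. Of all genes, they gave 31.2% higher and 30.1% lower, 24.5% and 22.2%, and 35.5% and 32.1%. A requirement of at least 2-fold left 0 members in HD-het against control (0 higher, 0 lower), 2 in HD-homo against control (2 higher, 0 lower) and 4 in HD-homo against HD-het (2 higher, 2 lower). Prkdc in HD-homo against HD-het was at -0.13 (adjusted p = 0.315) with plain loess offsets. No called member changed sign in the first pair of comparisons, and 3 did in HD-homo against HD-het with plain loess offsets. The cause was not tested.

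With the replicate block, 21, 19 and 30 members were called in the 3 comparisons, against 22, 20 and 28 without it. The block gave 30.2% of all genes higher and 28.7% lower, 22.1% and 21.3%, and 34.0% and 32.3%. Same-numbered libraries of different lines deviated from their line means with correlations from -0.36 to 0.17, so the numbers were not taken to pair the samples. Of the called members, 15, 15 and 18 were called in every one of the 19 alternative settings that kept the threshold. Of the members not called, 18, 11 and 15 were called in at least 1 of them, 12, 1 and 1 of these with plain loess offsets only.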
